A study of Saccharomyces cerevisiae with 21 samples.

Results

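The 10 genes described here, of yeast phospholipid synthesis and its control by inositol and choline, were followed through a wine fermentation by Saccharomyces cerevisiae: INO1, INO2, INO4, OPI1, ITR1, CHO1, CHO2, OPI3, PSD1 and HNM1. They were chosen by name, with earlier results of these data known. All 10 were found among the 5656 genes measured, each on 1 probe set annotated to that gene alone. RNA was taken from cultures at 1, 12, 24, 48, 60, 120 and 340 h, with 3 biological replicates and so 3 one-colour Affymetrix arrays at each time. Ethanol stood at 0.5% in the 24 h cultures and at 2%, 3.5%, 7% and 10% in those of 48, 60, 120 and 340 h, so that time and ethanol cannot be told apart, and no ethanol level is given for 1 h and 12 h. No other treatment or genotype separates the groups, and the strain and medium are not given in the sources used here.

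Yeast makes inositol from glucose 6-phosphate through Ino1, and takes it up through Itr1. Cho1 makes phosphatidylserine, Psd1 turns it into phosphatidylethanolamine in the mitochondria, and the methyltransferases Cho2 and Opi3 turn that into phosphatidylcholine, while Hnm1 brings in choline for a separate route. Most of these genes carry an upstream element that is bound by Ino2 together with Ino4. When inositol is plentiful the repressor Opi1 leaves the endoplasmic reticulum membrane, where phosphatidic acid and Scs2 hold it, enters the nucleus and acts on Ino2, and INO1 is the classical gene of this control. The lipids concerned make up much of the membrane that ethanol disturbs during a fermentation.

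INO1 changed by far more than the other 9 genes, from low and level in the first 24 h to high at the end. CHO2, OPI3 and the inositol permease gene ITR1 rose with it at 48 h and stayed above 24 h at every later time. The activator genes INO2 and INO4 had their highest means after 24 h at 60 h and did not pass at 340 h against 24 h on the deposited scale, though both rose there on arrays centred on 5 reference genes. That centring moved the median change of all genes at 340 h up by 0.70. The repressor gene OPI1 had its highest mean at 340 h. CHO1, PSD1 and HNM1 moved least, with means over the 7 times that spanned 1.0, 0.93 and 0.79 on the log2 scale, against 5.39 for INO1. Over all 7 times each of the 10 genes passed the moderated F test of limma, with adjusted p from 1.49e-15 (INO1) to 0.00904 (HNM1), but 89.2% of all genes passed it too.

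Levels are log2 signals summarised by the authors with RMA, changes are log2 differences ± standard error from limma, and the words rose and fell are kept for genes whose p-value, adjusted over all 5656 genes by the Benjamini-Hochberg method, was under 0.05. In bulk RNA, fewer cells and less RNA per cell cannot be told apart. Levels of different genes are not compared, since probe sets differ in brightness. With 3 arrays per time the median standard error over all genes was 0.20. Array medians lay between 6.62 and 6.90. Of the 24 h arrays, replicate 3 differed from the other two, with a mean correlation across genes of 0.960 with the other 24 h arrays and an 18S ribosomal RNA signal of 9.33 against 6.36 and 6.49, and where leaving it out ended or added a call for one of the 10 genes, or turned a sign that is named, the value without it is given. At 120 h the 18S signal of replicate 3 also stood apart, at 9.61 against 7.16 and 6.80. Its mean correlation with the other 120 h arrays was 0.978. At 340 h the 18S signal was 10.1 to 12.1, above all other times. The SPT15 control probe sets differed more there between the 3' and 5' ends, with 2.53 to 3.20 against 1.97 to 2.29 at 24 h (log2). A larger difference is a sign of poorer RNA integrity. On 48 h replicate 3 the SPT15 difference was 2.67. The same difference for ACT1 was 1.03, 1.25 and 2.02 at 24 h and 1.93, 1.86 and 1.73 at 48 h. It was 1.14, 1.23 and 0.98 at 60 h, 1.65, 1.46 and 1.72 at 120 h, and 1.71, 2.74 and 1.74 at 340 h. The part of these differences in the results at 340 h and at the other times was not tested.

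**Figure D1:**
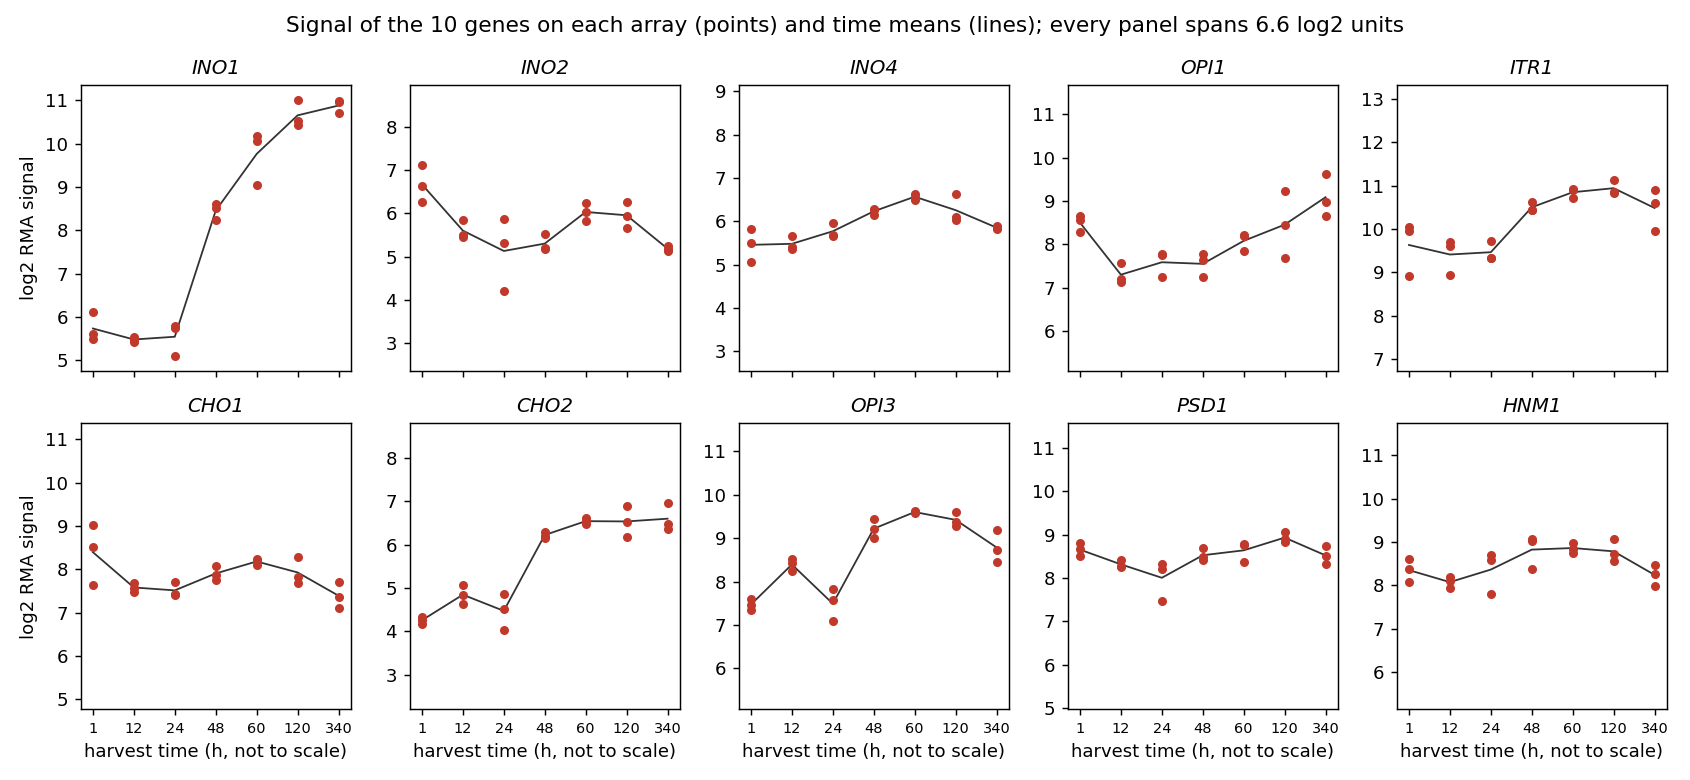
Log2 signal (vertical axes) of each of the 10 genes on the 21 arrays (points, 3 per time) against harvest time in hours (horizontal axes, not to scale), with lines through the time means. INO1 climbs from 5.55 at 24 h to 10.9 at 340 h, CHO2 and OPI3 step up at 48 h, and the time means of CHO1, PSD1 and HNM1 span 1.0 log2 unit or less.

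INO1, for inositol-3-phosphate synthase, read 5.5, 5.6 and 6.11 at 1 h, 5.43, 5.55 and 5.47 at 12 h, and 5.79, 5.75 and 5.10 at 24 h. These 3 groups overlapped, and neither 12 h against 1 h (-0.25 ± 0.25, adjusted p = 0.403) nor 24 h against 12 h (0.06 ± 0.25, adjusted p = 0.916) passed. It then read 8.52, 8.62 and 8.23 at 48 h, 10.07, 10.18 and 9.04 at 60 h, 11.01, 10.52 and 10.43 at 120 h, and 10.70, 10.98 and 10.96 at 340 h. From 24 h to 120 h every later group lay wholly above the one before it, while the 120 h and 340 h arrays overlapped. The rise over 24 h was 2.91 ± 0.26 at 48 h (limma adjusted p = 4.93e-07), 4.22 ± 0.26 at 60 h, 5.11 ± 0.26 at 120 h and 5.33 ± 0.26 at 340 h (adjusted p = 2.65e-11), the last a 40.3-fold difference on the RMA scale. These placed INO1 4th, 3rd, 2nd and 3rd among the rises of all genes, and 54.6% of the rise to 340 h, on the log2 scale, was present at 48 h. Leaving out any 1 array kept the rise to 340 h between 5.11 and 5.46.

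Taken step by step, INO1 rose between 48 h and 60 h by 1.31 ± 0.26 (adjusted p = 0.00549) and between 60 h and 120 h by 0.89 ± 0.26 (adjusted p = 0.0406), and it was the only one of the 10 genes to pass in either step with all arrays. Without 24 h replicate 3, INO2 passed in the first (0.73, adjusted p = 0.0151). Of all genes 3.48% rose and 4.60% fell in the first of these steps, and 4.60% rose and 4.95% fell in the second. Without regard to the test, the 60 h arrays lay wholly above the 48 h arrays for 8 of the 10 genes, as they did for 17.9% of all genes. The second step lost its call when any of 7 arrays was left out. One was 60 h replicate 3, the lowest INO1 array at that time, without which the change was 0.53 (adjusted p = 0.193), and the others were replicates 1 and 2 of 48 h and of 120 h and replicates 2 and 3 of 340 h (0.71 to 0.95). Between 120 h and 340 h the change was 0.22 ± 0.26 (adjusted p = 0.522).

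Of the transport genes, ITR1, the main inositol permease, had values of 10.04, 9.95 and 8.91 at 1 h, 8.93, 9.60 and 9.71 at 12 h and 9.34, 9.72 and 9.34 at 24 h. All 9 later arrays up to 120 h were above them, at 10.45, 10.43 and 10.63 at 48 h, 10.90, 10.72 and 10.93 at 60 h and 10.85, 10.84 and 11.14 at 120 h. At 340 h it read 10.61, 9.96 and 10.89, where replicate 2 lay within the range of 1 h. ITR1 rose over 24 h by 1.04 ± 0.20 at 48 h (adjusted p = 0.00125), 1.38 ± 0.20 at 60 h, 1.48 ± 0.20 at 120 h and 1.02 ± 0.20 at 340 h (adjusted p = 2.62e-04), and kept these calls when any 1 array was left out. It reached 70.3% of its highest rise, on the log2 scale, by 48 h. The choline permease gene HNM1 ranged from 7.81 to 9.07 over the 21 arrays, and no pair of times next to each other in its order of means was free of overlap. From 24 h to 48, 60, 120 and 340 h the differences were 0.46, 0.50, 0.42 and -0.13 (each ± 0.24), and none passed on the deposited scale (adjusted p from 0.0979 to 0.665). Its lowest array was 24 h replicate 3, without which they were 0.18, 0.22, 0.14 and -0.41. At 60 h it passed without 24 h replicate 2 (0.67, adjusted p = 0.0478), and on the reference genes it rose at 48 h (0.74, adjusted p = 0.04), 60 h (0.72, adjusted p = 0.0312) and 120 h (0.95, adjusted p = 0.00342). That centring moved the median change of all genes up by 0.28, 0.22 and 0.53 at these times.

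The genes of the path from phosphatidylserine to phosphatidylcholine did not move alike. CHO2, whose enzyme adds the first methyl group to phosphatidylethanolamine, read 4.33, 4.18 and 4.26 at 1 h, 4.63, 4.85 and 5.06 at 12 h and 4.51, 4.87 and 4.04 at 24 h. From 48 h on it read 6.30, 6.16 and 6.21 at 48 h, 6.47, 6.62 and 6.54 at 60 h, 6.18, 6.53 and 6.90 at 120 h, and 6.37, 6.47 and 6.96 at 340 h. Every array from 48 h on was above every array up to 24 h, and the 4 late groups did not separate from their neighbours in the order of means. CHO2 rose over 24 h by 1.76 ± 0.22 at 48 h (adjusted p = 1.62e-05) and by 2.13 ± 0.22 at 340 h (adjusted p = 1.69e-07), with 82.6% of the rise, on the log2 scale, present at 48 h. Its signal is low, with a mean over all arrays in the 26.1 percentile of genes, where RMA understates changes.

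OPI3, for the methyltransferase of the last steps, read 7.60, 7.46 and 7.35 at 1 h, 8.52, 8.42 and 8.24 at 12 h and 7.08, 7.57 and 7.82 at 24 h. It was thus higher at 12 h than at either time around it, with no overlap: it rose by 0.92 ± 0.20 between 1 h and 12 h (adjusted p = 3.40e-04) and fell by 0.90 between 12 h and 24 h (SE 0.20, adjusted p = 0.0251). It then read 9.22, 9.0 and 9.44 at 48 h, 9.59, 9.62 and 9.60 at 60 h, 9.38, 9.28 and 9.61 at 120 h and 8.44, 8.72 and 9.20 at 340 h. The 340 h arrays were all below those of 120 h and all above those of 24 h. OPI3 rose over 24 h by 1.73 ± 0.21 at 48 h (adjusted p = 1.22e-05), 2.11 ± 0.21 at 60 h, 1.93 ± 0.21 at 120 h and 1.30 ± 0.21 at 340 h (adjusted p = 3.36e-05). The fall from 12 h to 24 h was the only change of the 10 genes in that step, where 0.796% of all genes rose and 1.27% fell, and it did not pass when replicate 1 or 2 of either time was left out (-0.94 to -0.70, highest adjusted p = 0.0872).

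CHO1, for phosphatidylserine synthase, had its highest mean at 1 h (8.52, 9.02 and 7.65), although replicate 3 lay among the 12 h values of 7.69, 7.48 and 7.58. It fell by 0.81 between those times (SE 0.24, adjusted p = 0.00605), a call lost without 1 h replicate 2 (-0.50, adjusted p = 0.0721) and with centring on reference genes (-0.57, adjusted p = 0.0974). At 24 h it read 7.40, 7.72 and 7.43, at 60 h 8.11, 8.19 and 8.25, and at 340 h 7.36, 7.12 and 7.70. On the deposited scale only the 60 h rise over 24 h passed (0.67 ± 0.19, adjusted p = 0.0082), the change at 340 h being -0.12 ± 0.19 (adjusted p = 0.593). On the reference genes CHO1 also rose at 48 h (0.67, adjusted p = 0.0363), 120 h (0.94, adjusted p = 0.00149) and 340 h (0.58, adjusted p = 0.0324). That centring moved the median change of all genes up by 0.28, 0.53 and 0.70 at these times. The 120 h difference passed too without 120 h replicate 1 (0.54, adjusted p = 0.0381). PSD1, for the mitochondrial decarboxylase, ranged from 7.48 (24 h replicate 3) to 9.06 (120 h replicate 2), and only the 120 h group lay above the next group in its order of means without overlap. PSD1 rose over 24 h by 0.64 ± 0.21 at 60 h (adjusted p = 0.0184), 0.93 ± 0.21 at 120 h (adjusted p = 9.59e-04) and 0.52 ± 0.21 at 340 h (adjusted p = 0.0354). Without 24 h replicate 3 the 60 h and 340 h calls were lost (0.37, adjusted p = 0.103, and 0.26, adjusted p = 0.218). The first was also lost without 60 h replicate 1 or 3 (0.58 and 0.57), and the second without 340 h replicate 1 or 2 (0.53 and 0.40). At 48 h PSD1 passed on the reference genes (0.80, adjusted p = 0.0262) and without 24 h replicate 2 (0.675, adjusted p = 0.0449).

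The regulator genes followed 3 different courses. INO2, whose product carries the activating domain of the pair, read 7.12, 6.63 and 6.25 at 1 h, 5.49, 5.85 and 5.46 at 12 h, and 5.87, 5.32 and 4.20 at 24 h. All 1 h arrays were above all arrays of 12 h, and INO2 fell by 1.06 between these times (SE 0.29, adjusted p = 0.00282). It read 5.21, 5.52 and 5.17 at 48 h, 5.82, 6.23 and 6.04 at 60 h, 5.93, 6.26 and 5.67 at 120 h and 5.14, 5.17 and 5.24 at 340 h. The rises over 24 h at 60 h (0.90 ± 0.29, adjusted p = 0.0179) and 120 h (0.82 ± 0.29, adjusted p = 0.0238) rest on 24 h replicate 3: without it they were 0.44 (adjusted p = 0.103) and 0.36 (adjusted p = 0.159). The first was also lost without 60 h replicate 2 (0.80, adjusted p = 0.0688) and the second without 120 h replicate 2 (0.67, adjusted p = 0.101). At 48 h, when INO1 had risen by 2.91, INO2 differed from 24 h by 0.17 ± 0.29 (adjusted p = 0.725), or by -0.30 without 24 h replicate 3 (adjusted p = 0.337). At 340 h the difference was 0.06 ± 0.29 (adjusted p = 0.881), or -0.41 without that array (adjusted p = 0.0922) and 0.75 on the reference genes (adjusted p = 0.0355). Centring on these genes moved the median change of all genes at 340 h up by 0.70.

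INO4, for the partner protein of Ino2, had its lowest means at 1 h (5.5, 5.82 and 5.05) and 12 h (5.66, 5.41 and 5.37), followed by 5.67, 5.69 and 5.95 at 24 h and 6.29, 6.25 and 6.15 at 48 h. It was highest at 60 h (6.64, 6.57 and 6.49), and then read 6.63, 6.03 and 6.11 at 120 h and 5.82, 5.89 and 5.85 at 340 h. The groups of 24 h, 48 h and 60 h did not overlap with each other. INO4 rose over 24 h by 0.80 ± 0.17 at 60 h (adjusted p = 8.49e-04) and by 0.49 ± 0.17 at 120 h (adjusted p = 0.0199, but 0.30 and adjusted p = 0.136 without 120 h replicate 1, and lost also without 24 h replicate 1 or 2, at 0.44 and 0.45), and missed the threshold at 48 h (0.46 ± 0.17, adjusted p = 0.0574) and at 340 h (0.08 ± 0.17, adjusted p = 0.693, but 0.78 and adjusted p = 4.83e-04 on the reference genes). The 48 h difference passed without 24 h replicate 3 (0.55, adjusted p = 0.0323) and under each of the 3 other array scalings. At 340 h the centring on reference genes moved the median change of all genes up by 0.70.

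OPI1, the repressor gene, read 8.66, 8.57 and 8.28 at 1 h and 7.58, 7.20 and 7.13 at 12 h, all of the latter below all of the former, and fell by 1.2 (SE 0.29, adjusted p = 0.00108). It read 7.77, 7.75 and 7.25 at 24 h, 7.64, 7.77 and 7.25 at 48 h and 8.19, 8.22 and 7.84 at 60 h. The latest groups were the most spread, with 9.23, 8.46 and 7.68 at 120 h and 9.63, 8.98 and 8.66 at 340 h, replicate 1 being the highest in both. OPI1 rose over 24 h by 0.87 ± 0.31 at 120 h (adjusted p = 0.0247) and by 1.51 ± 0.31 at 340 h (adjusted p = 3.56e-04). On the reference genes it also rose at 60 h (0.72, adjusted p = 0.0358), where that centring moved the median change of all genes up by 0.22. The 120 h call was lost without 24 h replicate 3 (0.70, adjusted p = 0.0955), without 120 h replicate 1 (0.48, adjusted p = 0.173) and without 120 h replicate 2, while the 340 h call held without any 1 array (highest adjusted p = 0.00354). The repressor gene and its target INO1 both had their highest means at 340 h. On the deposited scale neither passed against 120 h, and the arrays of the 2 times overlapped for both. The changes were 0.63 ± 0.31 for OPI1 (adjusted p = 0.109) and 0.22 ± 0.26 for INO1 (adjusted p = 0.522).

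**Figure D2:**
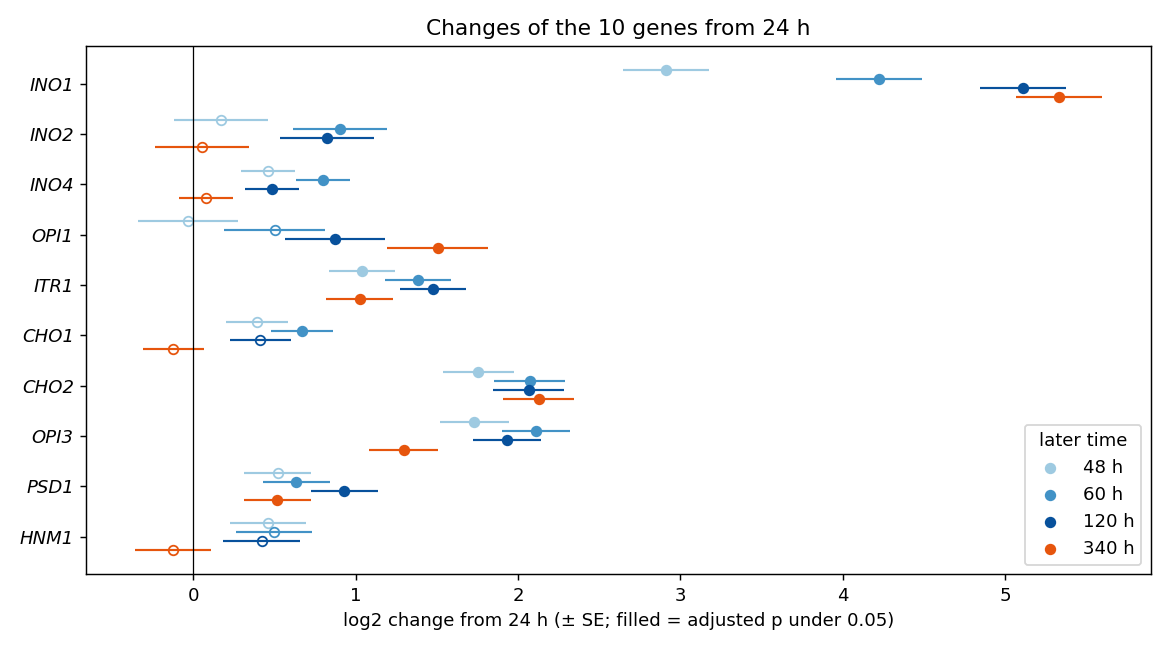
Log2 change from 24 h (horizontal axis, ± SE from limma) of the 10 genes (rows) at 48, 60, 120 and 340 h (colours, 3 arrays per time); filled points passed at an adjusted p under 0.05 and open points did not. INO1 lies between 2.91 and 5.33, CHO2 between 1.76 and 2.13, and the 340 h points of INO2, INO4, CHO1 and HNM1 lie between -0.13 and 0.08.

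Counted over the 10 genes, 4 rose and 0 fell at 48 h against 24 h, where 12.8% of all genes rose and 8.42% fell. At 60 h 8 rose and 0 fell, beside 22.6% and 20.8% of all genes. At 120 h it was again 8 and 0, beside 26.6% and 26.6%, and at 340 h 6 and 0, beside 27.8% and 36.0%. The later arrays lay wholly above those of 24 h for 7, 9, 6 and 6 of the 10, and for 20.5%, 26.8%, 28.8% and 27.7% of all genes. For PSD1 at 340 h the gap was under 0.01. The median change of the 10 was 0.49, 0.85, 0.90 and 0.77, beside medians over all genes of -0.02, 0.01, 0.01 and -0.13. These comparisons share the 24 h arrays, and the 10 genes were chosen with earlier results of these data known. Without 24 h replicate 3 the counts were 5, 6, 6 and 5, all higher. On the arrays centred on 5 reference genes (ACT1, ALG9, TAF10, TFC1 and UBC6), 8, 10, 10 and 9 of the 10 rose and none fell. That centring moved the median of all genes by 0.28, 0.22, 0.53 and 0.70. The share of calls that were higher thus went from 60.3% to 88.5%, 52.1% to 72.2%, 50% to 81.9% and 43.5% to 77.1%. On the deposited scale TAF10 and ALG9 themselves fell at 340 h (-1.60 ± 0.22 and -0.60 ± 0.22). TAF10 also fell from 24 h to 60 h (-0.65 ± 0.22, adjusted p = 0.025) and to 120 h (-1.06 ± 0.22, adjusted p = 6.24e-04).

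From 120 h to 340 h 3 of the 10 genes fell, after none had fallen in a comparison of a later time with 24 h. These were INO2 (-0.77 ± 0.29, adjusted p = 0.041), CHO1 (-0.54 ± 0.19, adjusted p = 0.0294) and OPI3 (-0.64 ± 0.21, adjusted p = 0.0215). None of the 10 rose, beside 15.9% of all genes that rose and 26.6% that fell. INO2 and OPI3 had no overlap between the times, as did INO4, PSD1 and HNM1, all lower at 340 h, and 33.6% of all genes were without overlap in that direction. The call depends on the array scale, as all 3 were lost after centring on array medians or on the reference genes, where OPI1 rose instead (0.75, adjusted p = 0.049, and 0.80, adjusted p = 0.0251), and only OPI3 passed after quantile normalization. In this step same-numbered arrays deviate together, and with the replicate block 5 of the 10 passed: INO4 (-0.41, adjusted p = 0.0499) joined those that fell, and OPI1 (0.63, adjusted p = 0.0193) rose. Leaving out 24 h replicate 3, which enters only through the shared estimate of the spread, brought the falls to 6. Those added were INO4 (-0.41, adjusted p = 0.039), PSD1 (-0.41, adjusted p = 0.0408) and HNM1 (-0.55, adjusted p = 0.0272). Leaving out 340 h replicate 1 or 2 brought the falls to 0. Single calls were lost too: that of INO2 without 60 h replicate 3, 120 h replicate 1 or 2 or 340 h replicate 3 (adjusted p up to 0.152), and those of CHO1 and OPI3 without 120 h replicate 3 (-0.35, adjusted p = 0.153, and -0.54, adjusted p = 0.0776). The median of all genes moved by 0.12 with array medians and 0.17 with the reference genes, and the share of calls that were higher went from 37.4% to 48.4% and 55.1%.

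Between 1 h and 12 h 2 of the 10 genes rose and 3 fell, where 26.0% of all genes rose and 33.9% fell. These counts were near the shares of all genes. OPI3 and CHO2 (0.59 ± 0.21, adjusted p = 0.0171, with no overlap) rose and INO2, OPI1 and CHO1 fell. The CHO2 call was lost without 1 h replicate 2 or 12 h replicate 3 (highest adjusted p = 0.0824). That of CHO1 was lost without 1 h replicate 2 (adjusted p = 0.0721) and on the reference genes (adjusted p = 0.0974). Without 1 h replicate 2 only 1 of the 10 rose and 2 fell. The arrays of the 2 times did not overlap for 2 genes that were higher and 3 that were lower at 12 h (INO2, OPI1 and PSD1), beside 28.9% and 37.6% of all genes.

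Differences between 2 genes on the same array do not depend on how arrays are scaled against each other by a constant. They were formed for 4 pairs chosen after the values were seen, and are given as a description with no test. INO4 minus INO2 was -1.62, -0.81 and -1.2 at 1 h and 0.68, 0.71 and 0.61 at 340 h, without overlap, a difference of 1.88 between the means. In the 24 h arrays it was spread over -0.20, 0.37 and 1.75, the last on replicate 3, and the 340 h mean differed from the 24 h mean by 0.025. At 48 h it was 1.08, 0.74 and 0.98. OPI1 minus INO2 was 1.54, 1.94 and 2.04 at 1 h, 1.90, 2.43 and 3.05 at 24 h and 4.49, 3.81 and 3.42 at 340 h, with a difference of 1.45 between the 24 h and 340 h means and no overlap between these times. INO1 minus CHO2 was 1.29, 0.87 and 1.06 at 24 h and 4.33, 4.51 and 4 at 340 h, a difference of 3.21. CHO2 minus CHO1 was -2.90, -2.85 and -3.39 at 24 h and -1, -0.65 and -0.74 at 340 h, a difference of 2.25. CHO2, INO2 and INO4 have low signals, where RMA understates changes, and how far this enters the differences was not tested.

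**Figure D3:**
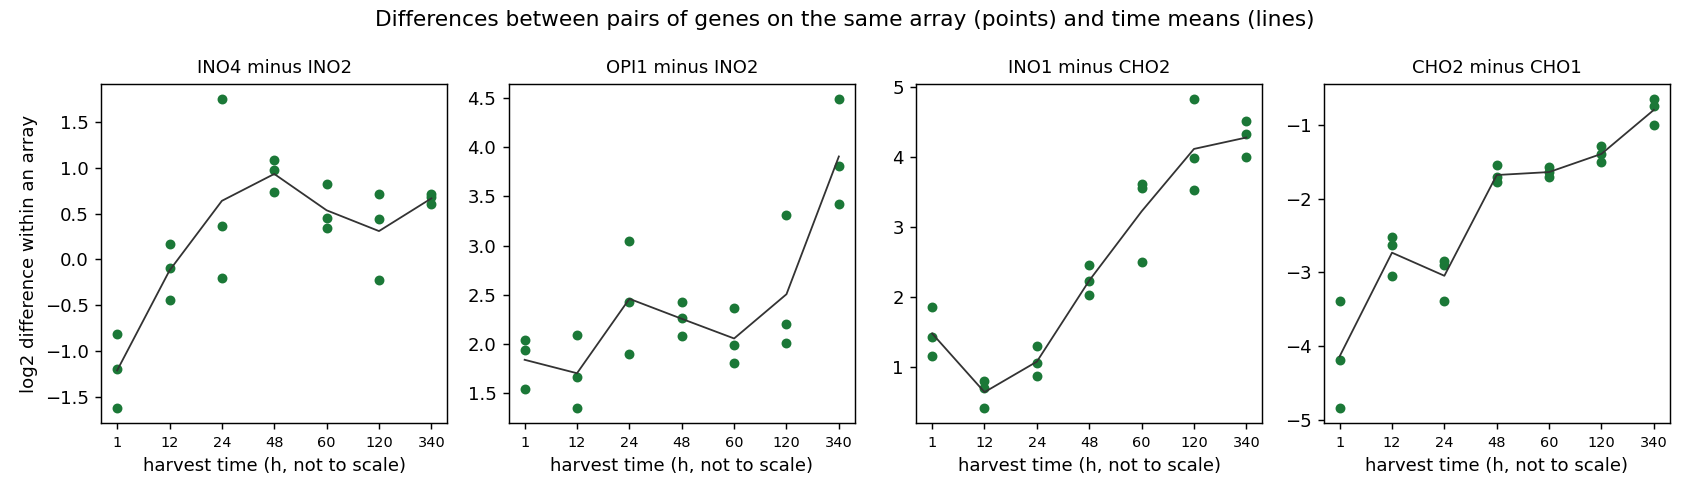
Log2 difference between 2 genes on the same array (vertical axes, points, 3 arrays per time) against harvest time in hours (horizontal axes, not to scale), with lines through the time means. INO4 minus INO2 goes from below 0 at 1 h to 0.64 at 24 h and 0.67 at 340 h, OPI1 minus INO2 is highest at 340 h (3.91), and INO1 minus CHO2 grows from 1.08 at 24 h to 4.28 at 340 h.

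Among the 10 genes, the time course of INO1 was most like that of CHO2 (Pearson r = 0.932 over the 21 arrays, which share time points and scaling), then ITR1 (0.825) and OPI3 (0.778). CHO2 and OPI3 followed each other with r = 0.891. INO2 had r = -0.08 with INO1 and 0.634 with CHO1, its closest partner among the 10. Of all 5655 other genes, those with a course most like INO1 were SHC1 (0.982), an activator of chitin synthase in sporulation, GPX1 (0.977), a glutathione peroxidase, AVT3 (0.977), which exports amino acids from the vacuole, PDE1 (0.966), a cAMP phosphodiesterase, and YHR138C (0.963). The closest to CHO2 were YNR071C (0.971) and the glycogen branching enzyme gene GLC3 (0.968), to OPI3 the mitochondrial genes CYT2 (0.955) and PRX1 (0.951), and to ITR1 QCR9 (0.95) and PIG2 (0.947). For the regulators they were FEN2 (0.898) and YBR197C (0.893) for INO2, FMP10 (0.941) and CBP4 (0.915) for INO4, and IOC4 (0.959) and SLU7 (0.926) for OPI1. Like INO2, CHO1, PSD1 and HNM1 had no gene above 0.9, the closest being JAC1 (0.884) and MIX23 (0.83), MRP49 (0.848) and CCW14 (0.828), and NAS2 (0.846) and YFR006W (0.839).

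Another 49 genes of phospholipid synthesis, breakdown and its control were read beside the 10. At 340 h against 24 h 15 of the 49 rose and 13 fell, with a median change of 0.24, while 27.8% of all genes rose and 36.0% fell. With array medians 20 rose and 11 fell, and on the reference genes 34 rose and 3 fell, so the balance of directions in these lists depends on the scale. In phospholipid breakdown 3 of 6 rose and 0 fell (median 0.89). PLB3, for a phospholipase B, had the largest change of the 49 genes and stood at 7.03 ± 0.15 at 24 h, 7.04 ± 0.36 at 60 h and 10.6 ± 0.47 at 340 h (mean ± SD, n = 3), a rise of 3.60 ± 0.25 (adjusted p = 1.20e-09). NTE1, a phospholipase that frees glycerophosphocholine (1.69 ± 0.20), and SPO14, phospholipase D (1.34 ± 0.17), rose as well. In inositol use and uptake 1 of 5 rose and 2 fell (median -0.31): GIT1, which imports glycerophosphoinositol, rose (1.81 ± 0.22), while ITR2, the second inositol permease gene, fell (-1.12 ± 0.22) where ITR1 rose, and so did PIS1, for phosphatidylinositol synthase (-0.49 ± 0.17), a call lost without 340 h replicate 1 (adjusted p = 0.0739) and with array medians (-0.37, adjusted p = 0.079). On the reference genes neither fall passed, and PIS1 changed sign (0.21).

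In the branch from CDP-diacylglycerol 2 of 7 rose and 1 fell (median 0.13). CRD1, for cardiolipin synthase (1.32 ± 0.31), and CDS1, which makes CDP-diacylglycerol (1.06 ± 0.27, or 0.67 without 24 h replicate 3), rose, and PSD2, the second decarboxylase gene beside PSD1, fell (-1.02 ± 0.25, not on the reference genes). In the Kennedy pathway, which builds phosphatidylcholine and phosphatidylethanolamine from free choline and ethanolamine, 2 of 6 rose and 3 fell (median -0.21). PCT1 (1.21 ± 0.18) and the choline kinase gene CKI1 (0.75 ± 0.19) rose. The 3 that fell included EPT1 (-1.35 ± 0.23) and CPT1 (-0.95 ± 0.20), neither of which fell on the reference genes. Among the genes that form phosphatidic acid 1 of 5 rose and 2 fell (median 0.01), GPT2 (1.13 ± 0.19) up and AYR1 (-1.32 ± 0.17) and ALE1 (-1.12 ± 0.19, not on the reference genes) down. ALE1 and AYR1 had moved most at the start, rising from 5.71 ± 0.04 to 9.58 ± 0.30 and from 5.77 ± 0.14 to 9.39 ± 0.11 between 1 h and 12 h (changes of 3.87 ± 0.19 and 3.62 ± 0.17).

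Of the genes that turn phosphatidic acid into diacylglycerol or back, 1 of 7 rose and 2 fell (median 0.24). The diacylglycerol kinase gene DGK1 rose (0.99 ± 0.16), and DPP1, a vacuolar phosphatase gene (-1.31 ± 0.23), and SPO7 (-0.97 ± 0.17, not on the reference genes), part of the activator of the phosphatase Pah1, fell. Of 10 genes for proteins that act with or on Ino2, Ino4 and Opi1, 3 rose and 3 fell (median 0.45), but 6 and 3 with array medians (median 0.56) and 7 and 1 on the reference genes (median 1.15). ISW2, a chromatin remodeller (1.66 ± 0.24), and HAC1, the factor of the unfolded protein response (1.52 ± 0.25), rose. CYC8, the corepressor known also as Ssn6 (-1.74 ± 0.17), and SCS2, the membrane anchor of Opi1 (-0.81 ± 0.21, not on the reference genes), fell. Of the 3 fatty acid synthesis genes that carry the same upstream element 2 rose, ACC1 (1.18 ± 0.18) and FAS1 (1.03 ± 0.20), and 0 fell (median 1.03), though FAS1 has 8 probe sets, which disagree at earlier times.

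**Figure D4:**
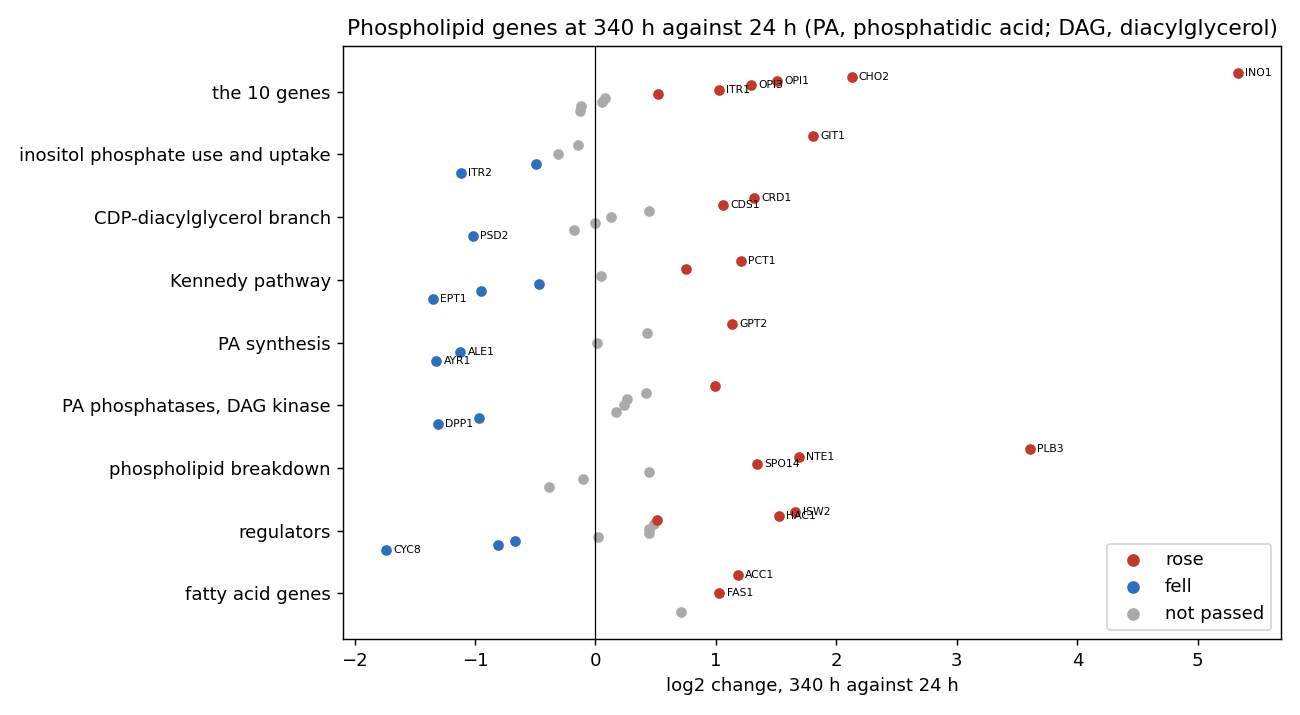
Log2 change at 340 h against 24 h (horizontal axis, from limma, 3 arrays per time) of the 10 genes and of the 49 other phospholipid genes by list (rows); red rose, blue fell and grey did not pass at an adjusted p under 0.05. INO1 (5.33) and PLB3 (3.60) lie farthest to the right, and of the 8 lists only those of phospholipid breakdown and of fatty acid genes hold no falls.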

How the data were processed

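Per the submitters' processing notes, RMA (affy) made the values the authors deposited, which are on a log2 scale, one per probe set; no version is given, and which arrays were normalized together is not given in the sources used here. The table held 9335 probe sets. Control probe sets (60), those with several genes (328) and those with no gene in the annotation supplied (2443) were left out, and of the other 6504 the one with the highest mean over 21 arrays stood for its gene (5656 genes). None of the 10 genes had a second probe set. Time means came from limma (version 3.58.1, under R version 4.3.3), with the 15 arrays of 24 h to 340 h, or all 21 for comparisons with 1 h or 12 h and for the F test. Tests were two-sided with Benjamini-Hochberg adjustment over 5656 genes and a threshold of 0.05. The fit was tested on simulated data.

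The genes and lists were chosen with earlier results of these data known. The text names all 10 genes, from each list up to 4 genes that passed at 340 h against 24 h with the largest changes, and the genes with the highest Pearson r to each of the 10 (5 for INO1, 2 for the others). Replicate numbers recur at each time without a stated meaning. Deviations of same-numbered arrays from the time means correlated above 0.1 for every number in just these steps, 60 to 120 h (from 0.164) and 120 to 340 h (from 0.153), so that only there the data pair the arrays; the fits given are without a block. Alternatives were centring on array medians or 5 reference genes, quantile normalization, averaged probe sets, leaving out genes under the 0.25 quantile of mean signal, eBayes with trend and robust, other arrays in the fit, the replicate block and leaving out each array. Arrays give no read depth, and their number per time (3) limits the precision. The p-values weigh a difference between time means against the spread between the deposited replicates. That spread is estimated over all times in the fit and moderated over all genes.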

Additional observations from a re-analysis of the deposited data

How the results depend on the processing

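Of the counts over the 10 genes, the following moved by more than 1.5 times. For 340 h against 120 h the count of 3 became 1 with array medians, 1 with the 5 reference genes, 1 with quantile normalization, and 5 with the replicate block. For 48 h against 24 h the 4 became 8 on the reference genes, and for 24 h against 12 h the 1 became 0 with only those 6 arrays in the fit. With each array left out in turn the counts ran from 4 to 5 (48 h), 6 to 9 (60 h), 6 to 8 (120 h) and 5 to 6 (340 h) against 24 h, from 1 to 2 (60 h against 48 h), 0 to 1 (120 h against 60 h), 0 to 6 (340 h against 120 h), 3 to 6 (12 h against 1 h) and 0 to 1 (24 h against 12 h), and the F test kept all 10. The block changed no other count by more than 1.5 times, and passed INO4 at 48 h against 24 h (0.46, adjusted p = 0.048). Among named genes, a called value changed sign, or a value turned into a call of the other sign, for CHO1 at 340 h against 24 h on the reference genes (0.58, adjusted p = 0.0324), PIS1 there (0.21), and FAS1 with averaged probe sets at 48 h against 24 h (-0.37), 60 h against 48 h (1.57) and 120 h against 60 h (-0.60). Of the other alternatives for the 10 genes, 18 added a call, 11 ended one, 1 turned CHO1 into a called rise as above and 690 did none of these. Of those that left out an array, 14 added, 42 ended and 1834 did neither. The 1834 include cases that could not differ, since the fits for 24 h to 340 h hold no 1 h or 12 h array to leave out. INO2, not called, also took either sign at 48 h (-0.30 to 0.54) and 340 h (-0.41 to 0.42) against 24 h as single arrays were left out, and of the listed genes not named, ECT1 (0.23) and UME6 (0.04), which fell at 340 h, were positive on the reference genes. Low signals, as of CHO2, INO2 and INO4, limit the size of the changes that can be read.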
